A study of Mus musculus with 4 samples.

Results

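The genes described here encode the transporters that remove calcium from the cytosol, namely the 3 sodium-calcium exchangers Slc8a1, Slc8a2 and Slc8a3, the 4 plasma membrane calcium pumps Atp2b1 to Atp2b4, and the endoplasmic reticulum calcium pumps Atp2a2 and Atp2a3. These 9 genes were chosen by family membership with the day 15 against day 0 results in view. Each is represented by the brightest probe set that the platform annotation assigns to that gene alone. Of the 9 genes, 8 had such a probe set among the 19938 genes measured, and Atp2b4 was not analysed here. The samples were ATDC5 cells, mouse cartilage progenitors that deposit a cartilage-like matrix once differentiation is induced. The day 0 group was undifferentiated cells in DMEM/F12 with fetal bovine serum, L-glutamine, antibiotics and ascorbic acid. The day 15 group was cells given the same medium plus insulin, transferrin and selenite for 15 days. Each group had 2 samples with 1 whole-transcript array each, so all values come from 1 cell line, and time in culture, supplement and differentiation cannot be told apart. Whether samples of a group came from separate cultures is not stated in the labels. P-values therefore refer to the spread left among these 4 samples after the fitted groups, drawn by limma towards that of all genes. That spread may be technical.

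A resting cell keeps its cytosolic calcium far below that of its surroundings. Exchangers of the Slc8 family use the inward sodium gradient to carry calcium out across the plasma membrane, with high capacity and low affinity, and can run in reverse. The Atp2b pumps spend ATP to export calcium with high affinity and are activated by calmodulin, whereas the Atp2a pumps return calcium to the endoplasmic reticulum. Calcium signals act in chondrocyte differentiation, and mineralizing cartilage matrix takes up calcium.

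Among the 8 genes measured, Slc8a3 was high at day 15 and low at day 0, while no other member differed between the days by more than 0.39 log2. The promoter windows of the 3 exchangers are printed because Slc8a3 alone among them showed a large difference and because hydroxymethylcytosine, the subject of the series, forms at methylated CpG sites. Each window runs from 250 bases before to 50 bases after the annotated start, 5′ to 3′ on the gene's own strand, from RefSeq on GRCm38.p6, with every CG in capitals. They lie at chr12:81333131-81333430 (minus strand) for Slc8a3, chr17:81738338-81738637 (minus strand) for Slc8a1 and chr7:16129576-16129875 (plus strand) for Slc8a2.
Slc8a3: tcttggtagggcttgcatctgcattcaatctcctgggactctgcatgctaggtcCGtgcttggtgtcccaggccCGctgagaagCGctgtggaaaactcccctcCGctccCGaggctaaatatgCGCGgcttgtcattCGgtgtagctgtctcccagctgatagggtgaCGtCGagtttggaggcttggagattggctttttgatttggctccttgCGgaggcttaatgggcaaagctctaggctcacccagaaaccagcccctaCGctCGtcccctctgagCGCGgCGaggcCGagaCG
Slc8a1: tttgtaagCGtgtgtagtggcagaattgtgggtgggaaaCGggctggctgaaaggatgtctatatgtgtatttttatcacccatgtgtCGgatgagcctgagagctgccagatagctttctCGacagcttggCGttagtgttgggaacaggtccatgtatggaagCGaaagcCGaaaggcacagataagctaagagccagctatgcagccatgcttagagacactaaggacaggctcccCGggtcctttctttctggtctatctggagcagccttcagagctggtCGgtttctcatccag
Slc8a2: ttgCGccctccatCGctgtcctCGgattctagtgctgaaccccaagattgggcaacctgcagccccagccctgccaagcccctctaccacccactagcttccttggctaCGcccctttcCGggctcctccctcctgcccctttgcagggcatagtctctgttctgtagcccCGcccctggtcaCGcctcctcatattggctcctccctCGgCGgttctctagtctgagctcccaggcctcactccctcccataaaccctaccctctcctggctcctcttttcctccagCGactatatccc
The Slc8a3 window held 18 CG pairs, against 9 for Slc8a1 and 10 for Slc8a2, and the median of the 32851 windows in the table was 7. Fewer than 18 were found in 70.3% of all windows. Its GC content was 58.3%, against 50.7% for Slc8a1, 61.3% for Slc8a2 and a median of 52.7%. Both strands were searched for the letters ACAATG and ACAAAG, cores of SOX factor motifs, TGACTCA, the AP-1 motif, and GGGCGG, the GC box. None of the 4 was found in the windows of Slc8a3 and Slc8a1, and the Slc8a2 window held 1 GC box. Of all windows 12.6% held ACAATG, 18.7% ACAAAG, 5.2% TGACTCA and 35.7% GGGCGG. The table held 10 windows for 7 of the 9 genes, and their CG counts ran from 4 for Atp2b4 to 54 for 1 of the Atp2b1 windows. The other Atp2b1 window held 45, those of Atp2b2 27, 12 and 8, and that of Atp2a3 25. Methylation was not measured on these arrays, and a match or its absence describes only the letters in the window.

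Levels are given as log2 of intensity plus 1 after quantile normalization of the 4 arrays, and differences as day 15 minus day 0 on that scale. A level of 1 probe set cannot be compared with that of another. No detection call was used, and the median gene had a level of 8.72, so dim genes may lie at background. Across genes, arrays of 1 day correlated at 0.983 to 0.984 and arrays of different days at 0.962 to 0.973. With limma, 342 of the 19938 genes, or 1.72%, had an adjusted p below 0.05. Without day 15 replicate 1 the count was 178, and without day 15 replicate 2 it was 208.

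Of the exchangers, Slc8a3, an isoform best known from skeletal muscle and brain (probe set 10401296), had levels of 6.83 and 6.81 on the day 0 arrays and of 10.54 and 11.71 on the day 15 arrays. Both day 15 arrays thus lay far above both day 0 arrays, and the day 0 arrays were nearly equal. The means were 6.82 ± 0.01 and 11.12 ± 0.82 (SD, n = 2 arrays per group), a difference of 4.31 log2 or 19.8-fold. In deposited intensities, before normalization, the probe set rose from 110.1 and 117 to 1496 and 3356. Day 15 over day 0 was 13.6-fold in the arrays numbered 1 and 28.6-fold in those numbered 2. The difference was the 12th largest increase of all genes, in the same contrast by which the members were proposed, and is therefore given without a test. The 2 day 0 values are below the median gene, so a fold from them may understate the change if they lie at background.

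**Figure D1:**
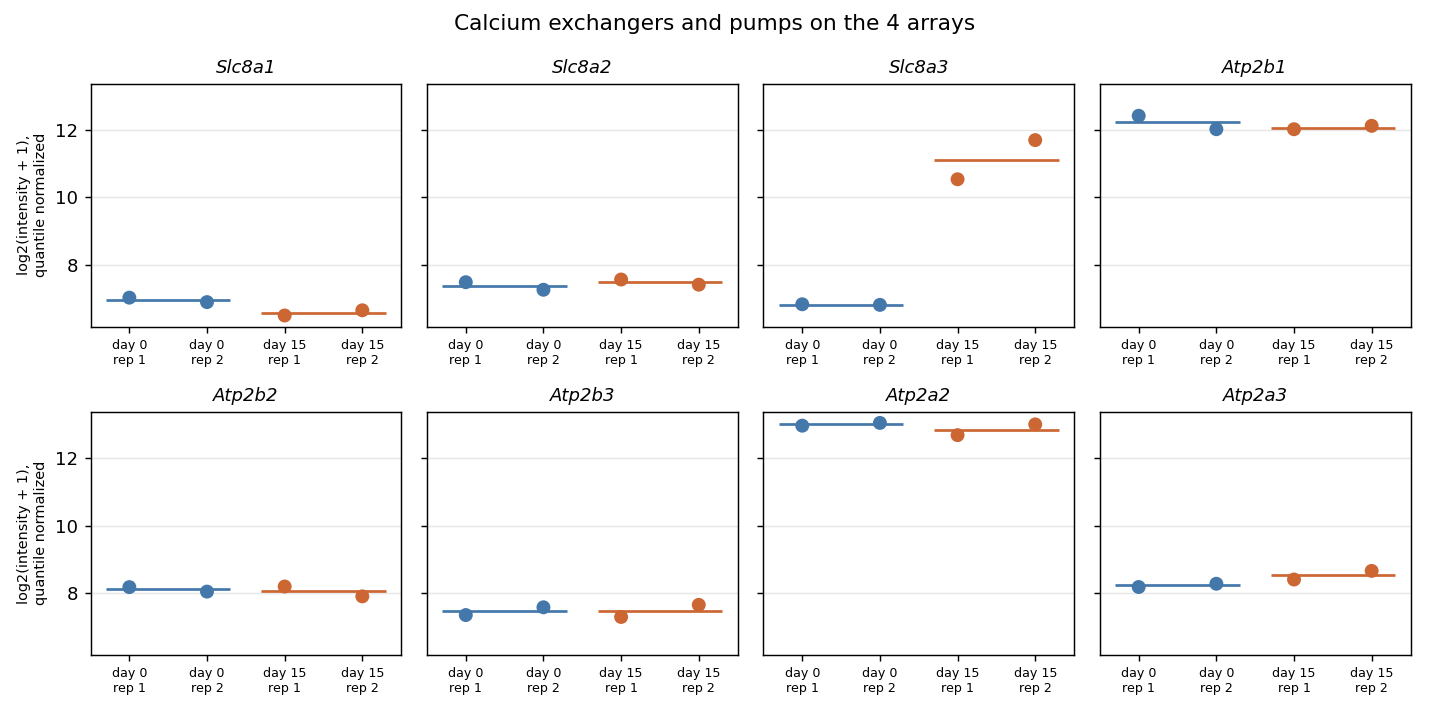
Levels of the 8 measured exchangers and pumps, with the arrays on the x axis and log2(intensity + 1) after quantile normalization on the y axis. Points are single arrays and horizontal lines are the means of each day (n = 2). Only Slc8a3 shows a wide gap, from 6.82 at day 0 to 11.12 at day 15.

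Slc8a1, the exchanger of heart muscle and many other tissues (probe set 10453233), had levels of 7.02 and 6.89 at day 0 and of 6.49 and 6.65 at day 15. Both day 15 arrays were below both day 0 arrays, by a mean of 0.39 log2 (6.96 ± 0.09 against 6.57 ± 0.11, SD, n = 2). A dimmer probe set of the same gene (10453231) had levels of 5.87 and 5.92 at day 0 and of 5.66 and 5.99 at day 15, and there the days overlapped. Its difference was −0.06 log2, so the probe sets of Slc8a1 disagreed on the size of the difference. Slc8a2, the exchanger found mainly in brain, had levels of 7.48 and 7.26 at day 0 and of 7.56 and 7.41 at day 15, with overlapping days and a difference of 0.12 log2. All 4 levels of Slc8a1 and of Slc8a2 were below the median gene.

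Of the plasma membrane pumps, Atp2b1, the form present in most tissues, had levels of 12.43 and 12.03 at day 0 and of 12.03 and 12.13 at day 15. Its days overlapped, with a difference of −0.15 log2. Atp2b2, a pump of neurons and of the hair cells of the inner ear, had levels of 8.18 and 8.04 at day 0 and of 8.19 and 7.90 at day 15, a difference of −0.06 log2. Atp2b3, a pump found mostly in the nervous system, had levels of 7.35 and 7.58 at day 0 and of 7.29 and 7.65 at day 15. Its difference was close to 0 (0.0076 log2), with a sign that turned with the scaling, and both of these pumps had overlapping days and mean levels below the median gene.

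Of the endoplasmic reticulum pumps, Atp2a2, whose isoforms serve heart muscle and nearly all other cells, had levels of 12.97 and 13.06 at day 0 and of 12.69 and 13.01 at day 15. The days overlapped and differed by −0.16 log2. Atp2a3, a form known from blood cells, platelets and some epithelia, had levels of 8.18 and 8.28 at day 0 and of 8.40 and 8.66 at day 15. Both day 15 arrays lay above both day 0 arrays, by a mean of 0.30 log2 (8.23 ± 0.07 against 8.53 ± 0.18, SD, n = 2).

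The median difference of the 8 measured members was −0.03 log2, and that of all genes was 0.02 log2. In 2 of the 8 (Slc8a3 and Atp2a3) both day 15 arrays were above both day 0 arrays, as in 22.3% of all genes, and in 1 of the 8 (Slc8a1) both were below, as in 17.8% of all genes. Of the 8 only Slc8a3 passed the limma threshold, which 1.3% of all genes passed as higher and 0.411% as lower at day 15, and since the members were proposed from this contrast nothing is read from that count. A difference of at least 1 log2 in either direction was found for Slc8a3 among the members and for 3.96% of all genes.

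The arrays were also compared by replicate number, a contrast that did not enter the choice of members. In a limma fit with day and replicate number, 18 of 19938 genes (0.0903%) differed between replicate 2 and replicate 1 at an adjusted p below 0.05. None of the 8 members did, and none had an unadjusted p below 0.05, as did 15.1% of all genes, so that with 8 genes the count says little. The lowest limma adjusted p among them was 0.404, for Atp2b3. For Atp2b3 and Atp2a2 both replicate 2 arrays were above both replicate 1 arrays (19.2% of all genes), and for Slc8a2 and Atp2b2 both were below (21.5% of all genes). The largest replicate difference of a member was that of Slc8a3, 0.57 ± 0.30 log2 (SE), and it came from day 15 alone. There replicate 2 exceeded replicate 1 by 1.16 log2, a gap matched or exceeded in either direction by 1.27% of all genes, whereas the median gap was 0.22 log2.

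The cartilage markers check the label of the cells. Of 8 analysed, limma called 4 higher (Col2a1, Acan, Hapln1 and Col10a1) and none lower, against 1.3% and 0.411% of all genes. Col9a1 did not pass (1.10 log2, limma adjusted p = 0.0733). Matn3 (−0.13 log2, limma adjusted p = 0.920) and Cnmd (−0.11 log2, 0.963) had overlapping days. Acan, the aggrecan core protein, had levels of 7.50 and 7.22 at day 0 and of 10.22 and 11.56 at day 15, and rose by 3.53 log2 (limma adjusted p = 0.0233). Its day 15 arrays differed by 1.33 log2 in the same direction as those of Slc8a3, and those of Col2a1, the type II collagen gene, differed by 0.96 log2. Hapln1, the link protein, and Col10a1, the collagen of hypertrophic cartilage, had day 15 gaps of only 0.02 and 0.08 log2. The call of Col2a1 (2.17 log2, limma adjusted p = 0.0441) did not survive leaving out day 0 replicate 1 (0.0689), day 0 replicate 2 (0.103) or day 15 replicate 2 (0.0504), or quantile normalizing only named probe sets (0.0508). Sox9, the leading transcription factor of the lineage, was at 12.03 ± 0.22 and 12.50 ± 0.35 (SD, n = 2) and did not pass (limma adjusted p = 0.533).

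Markers of other cells were examined beside Slc8a3. Of all genes, limma called 1.3% higher and 0.411% lower at day 15, and 12.2% had an unadjusted p below 0.05. Of 8 macrophage and microglia markers, 7 were lower in both replicate 2 arrays than in both replicate 1 arrays (21.5% of all genes). Of these, 5 passed the limma test of the replicate number (0.0903% of all genes). The log2 of their summed intensity was 12.93 in day 0 replicate 1, 10.44 in day 0 replicate 2, 12.94 in day 15 replicate 1 and 10.67 in day 15 replicate 2. Between the days none of the 8 was called with limma, and 0 had an unadjusted p below 0.05. Cd68 differed most, with levels of 9.41 and 8.10 at day 0 and of 10.66 and 9.24 at day 15. Its difference was 1.20 log2 (limma adjusted p = 0.530). The day 0 arrays of Slc8a3 were equal within 0.02 log2, and its highest value was on day 15 replicate 2, where most of the macrophage markers were low. Its difference was 3.71 log2 within the arrays numbered 1 and 4.90 log2 within those numbered 2. Skeletal and cardiac muscle markers gave sums of 11.27 to 11.45 on the 4 arrays, and none of 8 was called (1 had an unadjusted p below 0.05). Neuron markers gave sums of 10.56 to 10.85, and none of 6 was called (1 had an unadjusted p below 0.05). Of 5 oligodendrocyte markers none was called with limma (1 had an unadjusted p below 0.05); their sums were 11.61 and 10.97 at day 0 and 12.17 and 12.08 at day 15, led by Cnp (1.19 log2, limma adjusted p = 0.0824). Mbp, the myelin basic protein, followed the macrophage order instead, with levels of 9.35 and 6.52 at day 0 and of 9.42 and 6.61 at day 15, and passed the test of the replicate number (limma adjusted p = 0.0122). The part of these cells in the values of Slc8a3 was not tested. Osteoblast markers included 1 of 6 that rose, Ibsp, the bone sialoprotein, by 5.36 log2 (2 had an unadjusted p below 0.05). The other of these 2, Phex, an endopeptidase-like protein of bone, did not pass (2.55 log2, limma adjusted p = 0.0830). None of 6 osteoclast and of 5 adipocyte markers was called with limma (0 and 1 had an unadjusted p below 0.05). All 5 adipocyte markers were lower at day 15, 4 of them without overlap of the days, as in 17.8% of all genes. Pparg differed most (−0.97 log2, limma adjusted p = 0.0695), and 3 of the 5 had mean levels below the median gene.

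**Figure D2:**
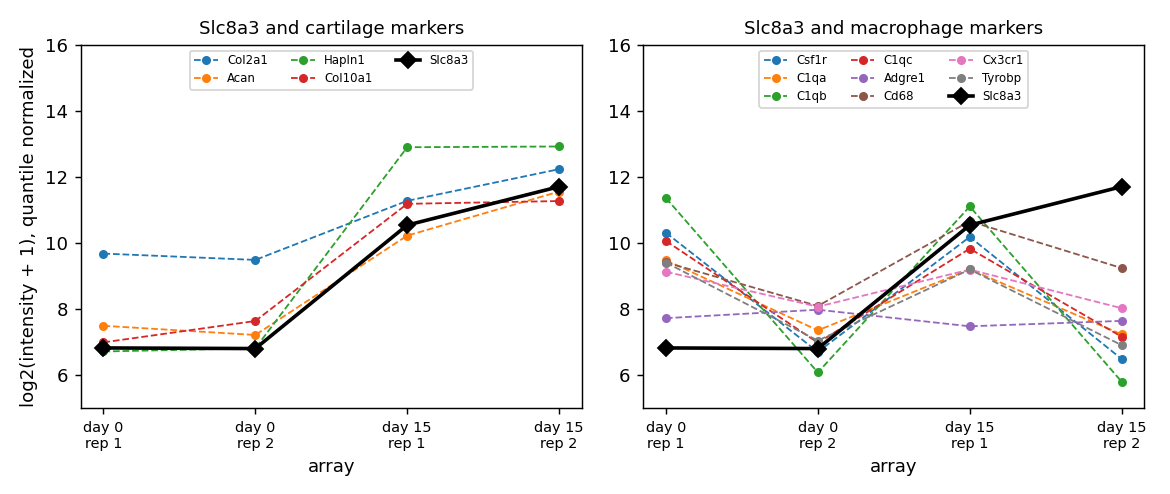
Levels on the 4 arrays (x axis) as log2(intensity + 1) after quantile normalization (y axis), for Slc8a3 beside the 4 cartilage markers that rose (left) and all 8 macrophage and microglia markers (right). Slc8a3 lies near 6.8 on both day 0 arrays and is highest on day 15 replicate 2, where most macrophage markers are low.

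The 5 genes whose profile over the 4 arrays was closest to Slc8a3 were Dpt, Adgrd1, Gbp8, Agt and Panx3. Closeness was the Euclidean distance between values centred on each gene's own mean, among genes at or above the median level, and 4 arrays allow only a coarse match. Dpt, the matrix protein dermatopontin, had the smallest distance, 0.52 log2, with levels of 7.30 and 6.92 at day 0 and of 11.07 and 11.61 at day 15. Adgrd1, an adhesion G protein-coupled receptor, followed at 0.59 and was the only one of the 5 whose day 15 gap, 1.05 log2, approached that of Slc8a3. Gbp8, a guanylate-binding protein, stood at 0.71, Agt, angiotensinogen, at 0.72, and Panx3, a channel protein of hypertrophic chondrocytes, at 0.76. The member with the next largest difference, Slc8a1, had its closest profiles in Lrrc47, Map2k2, Ssh1, Nup205 and Ide, at distances of 0.03 to 0.05 log2. A difference as small as that of Slc8a1 has many close neighbours.

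**Figure D3:**
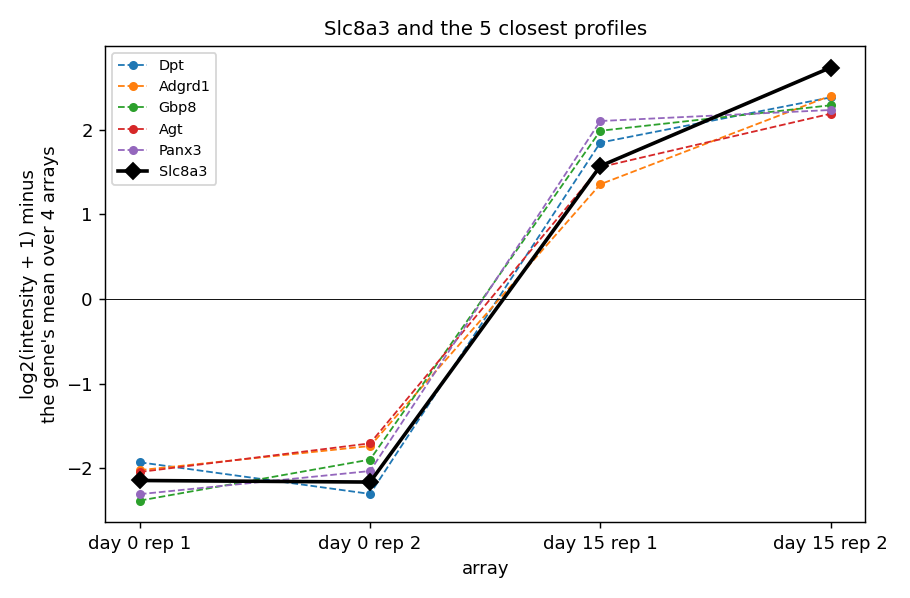
Profiles of Slc8a3 and of the 5 genes closest to it, with the arrays on the x axis and log2(intensity + 1) minus each gene's mean over the 4 arrays on the y axis. Each line joins the 4 values of 1 gene. Slc8a3 shows the largest step from day 15 replicate 1 to replicate 2, 1.16 log2.

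Other genes of calcium handling were compared as 8 lists of 106 genes, of which 97 were analysed. With limma, 3 of the 97 rose, Fxyd1, Piezo2 and Cacna2d3, none fell and 94 did not pass, against 1.3% of all genes called higher and 0.411% called lower. The median difference of the 97 was 0.10 log2, and 14 had an unadjusted p below 0.05, as did 12.2% of all genes. Without day 0 replicate 1 the count was 5, as Trpv4 was called higher and Cacna1c, the pore of an L-type channel, lower. In the 4 fits on 3 arrays the rise ran from 2.29 to 2.47 log2 for Fxyd1, from 1.82 to 2.34 for Piezo2 and from 1.73 to 2.20 for Cacna2d3. Without day 0 replicate 2 Cacna1b, the pore of an N-type channel, was called lower as well (−1.68 log2, limma adjusted p = 0.0355, against −1.06 log2 and 0.371 on all 4 arrays). The lists were chosen with earlier results of these data known.

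Among regulators of pumps and exchangers, limma called 1 of 11 higher (1.3% of all genes), and 2 had an unadjusted p below 0.05 (12.2% of all genes). Fxyd1, phospholemman, a small membrane protein that regulates the sodium pump and the cardiac sodium-calcium exchanger, had levels of 7.41 and 7.59 at day 0 and of 9.92 and 9.84 at day 15. The arrays of each day lay close together and the days far apart, a rise of 2.38 ± 0.17 log2 (SE) or 5.20-fold (limma adjusted p = 0.00473). Nptn and Bsg, membrane partners of the Atp2b pumps, differed by 0.18 and 0.16 log2 and did not pass (limma adjusted p = 0.828 and 0.844). Pln and Sln, the peptide inhibitors of the Atp2a pumps in muscle, differed by −0.27 and −0.08 log2 (limma adjusted p = 0.785 and 0.953), and both were below the median gene. Calm2 and Calm3, which encode calmodulin, differed by −0.02 and 0.11 log2 (limma adjusted p = 0.993 and 0.938).

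None of the 10 other calcium transporters was called with limma, and 1 had an unadjusted p below 0.05. This was Slc8b1, the mitochondrial sodium-calcium exchanger, with levels of 9.28 and 9.52 at day 0 and of 10.25 and 10.54 at day 15. Its days did not overlap (0.996 log2, limma adjusted p = 0.0925). Atp2c1, the calcium and manganese pump of the Golgi, had levels of 11.97 and 11.70 at day 0 and of 11.61 and 11.37 at day 15 (limma adjusted p = 0.601). Atp2a1, the calcium pump of fast skeletal muscle, differed by −0.39 log2 (limma adjusted p = 0.54). Of the sodium pump subunits, which maintain the gradient that the exchangers use, 4 of 7 were analysed and none was called (none had an unadjusted p below 0.05). Atp1b1 differed most, at 12.53 ± 0.09 and 12.06 ± 0.37 (SD, n = 2; limma adjusted p = 0.505).

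Of 26 plasma membrane entry channel genes, limma called 2 higher and none lower, against 1.3% and 0.411% of all genes. An unadjusted p below 0.05 was found for 7 of the 26, as for 12.2% of all genes. Piezo2, a channel opened by membrane tension, had levels of 8.85 and 8.60 at day 0 and of 10.54 and 11.06 at day 15, a rise of 2.08 ± 0.23 log2 (SE) or 4.22-fold (limma adjusted p = 0.0181). Cacna2d3, an auxiliary subunit of voltage-gated calcium channels, had levels of 7.90 and 7.74 at day 0 and of 10.02 and 9.55 at day 15, a rise of 1.97 ± 0.21 log2 (SE) or 3.91-fold (limma adjusted p = 0.0163). The days of both genes were far apart relative to the gap between arrays of 1 day. With the mean of all its probe sets, Piezo2 rose by 1.84 log2 (limma adjusted p = 0.0441). Trpv4, an osmotically and mechanically sensitive channel of chondrocytes, had levels of 10.29 and 9.34 at day 0 and of 11.28 and 11.98 at day 15. Its days did not overlap, but its arrays of 1 day were spread and it did not pass (1.81 ± 0.38 log2, SE; limma adjusted p = 0.116), except without day 0 replicate 1 (2.29 log2, 0.0352). Cacna1c, named here after its values were seen, had levels of 10.82 and 11.42 at day 0 and of 9.31 and 9.75 at day 15 and did not pass (−1.59 log2, limma adjusted p = 0.0634). Some of the alternatives given at the end did call it lower.

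**Figure D4:**
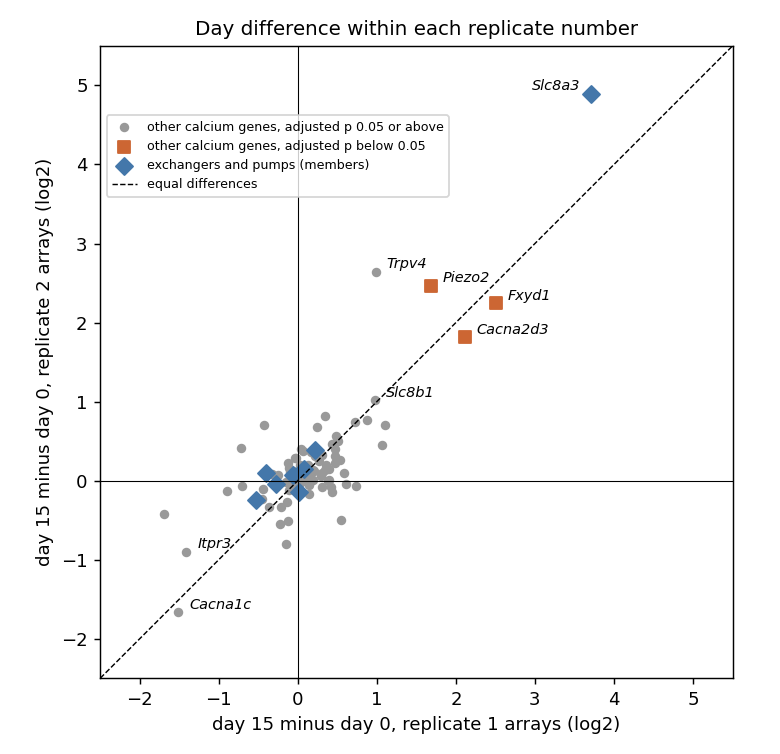
Day 15 minus day 0 in log2, within the arrays numbered 1 (x axis) and within those numbered 2 (y axis), for the 8 measured members and the 97 other calcium genes analysed. Each point is 1 gene and the dashed line marks equal differences. Slc8a3, at 3.71 and 4.90, stands apart from the other 7 members, which lie near 0.

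In the store release and store-operated entry list none of 12 was called with limma, and 2 had an unadjusted p below 0.05 (12.2% of all genes). Itpr3, a receptor that releases calcium from the endoplasmic reticulum, had levels of 10.85 and 10.42 at day 0 and of 9.44 and 9.52 at day 15 (−1.15 log2, limma adjusted p = 0.0716). Itpr2, of the same family, differed by 0.14 log2 (limma adjusted p = 0.953), with a negative sign without day 0 replicate 2 or day 15 replicate 2, and Itpr1 was not analysed here. Stim1, the calcium sensor of the store, was at 10.44 and 10.48 at day 0 and at 10.91 and 10.89 at day 15 (0.44 log2, limma adjusted p = 0.355). Orai1, the channel that Stim1 opens, differed by 0.03 log2 (limma adjusted p = 0.988), and this sign turned when only named probe sets were quantile normalized and without day 0 replicate 2.

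None of 7 mitochondrial uptake genes, 9 calcium-binding proteins of the endoplasmic reticulum and 18 cytosolic buffers and effectors was called with limma, and 0, 0 and 2 of them had an unadjusted p below 0.05. The genes with the largest differences were Micu3, a regulator of the mitochondrial uniporter (−0.32 log2, limma adjusted p = 0.612), Sdf4, a calcium-binding protein of the secretory pathway (0.52 log2, 0.477), and Nfatc4, a transcription factor activated through calcineurin (0.75 log2, 0.221). With 2 arrays per day, changes of about 1 log2 were mostly below reach in simulated data of the same size. There the limma test recovered 6% of changes of 1 log2, 92% of 2 log2 and 100% of 4 log2. The simulated noise was drawn from the model that limma fitted, and each share rests on a small set of changed genes. That noise was independent between arrays and had no replicate pattern, unlike the real arrays, so these shares may not hold here.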

How the data were processed

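Total RNA of 4 ATDC5 samples was labelled with biotin and hybridised to whole-transcript arrays, per the labels' protocols. The deposited values are linear probe set intensities, as their range and decimals show. The authors' background correction, summarization and normalization were not found in the labels (not given in the sources used here), and mm9 is named as the genome build per the submitters' processing notes. Of 35512 probe sets, 21789 had 1 gene symbol in the platform annotation, 1621 several and 12102 none. Only the first were used, with the brightest per gene, and for 21698 of these probe sets the gene identifier was matched to a RefSeq name on GRCm38.p6. The deposited intensities were turned to log2 after adding 1 and quantile normalized over all probe sets. A difference on this scale may understate the change of dim genes if their values lie at background.

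The days were compared with limma (version 3.58.1, R version 4.3.3; functions lmFit and eBayes, all 4 arrays, Benjamini-Hochberg over all genes, called below 0.05). SE is limma's moderated standard error. The test was checked on simulated data. Members and lists were chosen with earlier results of these data known. Genes named were all members, up to 4 called genes of each pathway list or otherwise the largest difference, 9 channels, pumps and regulators always named, the cartilage markers Col2a1, Acan, Sox9 and Col10a1, and the 5 closest profiles to each of the 2 members with the largest difference. The choice of Nptn, Bsg, Pln, Sln, Calm2, Calm3, Atp2a1, Cacna1b, Cacna1c, Ppp3ca, Hapln1, Cnp, Mbp, Phex and Ibsp followed a look at their values. So did that of Cd68, Col9a1, Matn3, Cnmd and Pparg. Of the listed pathway genes, 9 were not analysed here. A planned comparison of protein sequences was not made. The alternatives tried are given at the end.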

Additional observations from a re-analysis of the deposited data

How the results depend on the processing

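Slc8a3 kept its direction under all 14 alternatives, from 3.71 log2 with only the arrays numbered 1 to 4.90 with only those numbered 2, both chosen after seeing the data, and from 3.72 to 4.89 when 1 array was left out. Slc8a1 ranged from −0.53 log2 with only the arrays numbered 1 to −0.06 for its other probe set. The signs of Slc8a2, Atp2a2 and Atp2a3 held under every alternative that kept the gene, whereas those of Atp2b1, Atp2b2 and Atp2b3 did not. With 1 array left out, Slc8a2 fell to 0.0036 log2 and Atp2a2 rose to −0.0033 log2, so the signs of these genes carry little weight.

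With the replicate number as a block the genes called were 628 (440 higher, 188 lower), against 342 (260 and 82), and the calcium pathway genes called were 6, against 3. The same-numbered arrays' deviations from their day's mean correlated at 0.403 across genes, and with 2 pairs and no label on what a number shares the pairing is not established. Leaving out 1 array gave 178 to 284 calls (149 to 219 higher, 29 to 65 lower) and 3 to 5 pathway genes. The number lower was 48 without day 0 replicate 2, 29 without day 15 replicate 1 and 32 without day 15 replicate 2. Trend and robust hyperparameters gave 5 pathway genes, adding Cacna1c and Ppp3ca. The block added Cacna1c, Itpr3 and Slc8b1, and Cacna1c was also called, as lower, with median centring (limma adjusted p = 0.0363) and among the brighter genes (0.0400). Keeping only the brighter part of the genes, from the median upward, left Fxyd1 untested. The 18 genes called between replicate numbers became 33 with median centring, 191 with trend and robust hyperparameters and 0 among genes at or above the median level (1422 with an unadjusted p below 0.05). Orai1 was −0.042 log2 when only named probe sets were quantile normalized and ran from −0.033 to 0.090 when 1 array was left out, and Itpr2 ran from −0.17 to 0.45. Fits on 3 arrays assume for the single remaining sample of a day the spread of the other day. The causes of these changes were not tested.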
